A study of Mus musculus with 15 samples.

Results

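Dominant-negative MLX (MLX-DN) was compared with a vector that expresses only green fluorescent protein (GFP control) in C2C12 cells, a mouse line of skeletal muscle precursors (myoblasts). The comparison used the 3 MLX-DN libraries and the 3 GFP control libraries, 6 of the 15 in the series, chosen by the construct named in their labels. The other 9 libraries came from C2C12 cells with wild-type MLX (MLX-WT), with a hairpin RNA that targets Mlx (MLX shRNA) and with a non-targeting hairpin (NT shRNA), 3 of each. All 5 groups were transduced with lentivirus and none was left untransduced. The labels state the cells to be myoblasts and give neither time after transduction nor culture medium, and they name a dominant-negative form without describing how it was altered. Separate cultures are not stated, so the p-values below speak only of the scatter among these libraries, and that scatter may be purely technical.

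MLX belongs to the transcription factors with a helix-loop-helix and a leucine zipper, and it binds DNA as a dimer with MondoA (encoded by Mlxip), ChREBP (encoded by Mlxipl) or proteins of the MAD family. With MondoA or ChREBP it occupies carbohydrate response elements, paired E-boxes separated by a short spacer, and raises genes such as Txnip when sugar phosphates accumulate. A dominant-negative MLX takes up partners without giving them a working DNA-binding dimer, and the series was designed to follow messenger RNA in muscle cells with more or less MLX activity. No protein or DNA binding was measured here.

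Levels are FPKM, sequenced fragments scaled to transcript length and to the size of the library. Differences are on the log2(FPKM + 2) scale of the deposited table. On that scale the change of weakly expressed genes comes out too small. A gene was called when the adjusted p of limma, a linear model fitted over all 11945 tested genes, was under 0.05. Depth, estimated from the steps between low values, was 38600000 to 82900000 fragments in GFP control libraries, 47300000 to 65900000 for MLX-DN and 39800000 to 56200000 with NT shRNA. Libraries of MLX-DN correlated with each other at r = 0.9987 to 0.9991 and with the GFP control at 0.9614 to 0.9654, but with NT shRNA at 0.9863 to 0.9888. Values against NT shRNA are therefore given beside those against the GFP control. These comparisons share the MLX-DN libraries.

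The cells carried markers of their label, but these include Myog, which drives differentiation, and do not separate myoblasts from differentiating cells. The 51 sarcomere and calcium handling genes summed to 33990 to 34510 FPKM in GFP control libraries and to 30450 to 31050 with MLX-DN. The stage of differentiation was not tested. All 9 myoblast markers passed the filter for testing, though Pax7 was under 1 FPKM in each GFP control library. Their summed level was 2432 to 2462 FPKM in GFP control libraries and 2615 to 2717 with MLX-DN. Of these, Myog, Ncam1, Chrna1 and Pax7 were higher with MLX-DN, Des (0.16, so higher, with quantile normalization) and Myf5 were lower, and Myod1, Cdh15 and Itga7 were not called. Summed fibroblast markers ranged from 1445 to 1469 FPKM over the GFP control libraries, from 703.4 to 726.8 over those of MLX-DN and from 1275 to 1345 with NT shRNA, most of it from the collagens Col1a1 and Col3a1. Of these fibroblast markers 8 of 10 were tested, 6 lower and 2 higher (Cd34 and Dpt, which were both lower than in NT shRNA, at -1.26 and -1.12). The 8 smooth muscle markers summed to 3091 to 3187 and 2232 to 2300 FPKM, and 6 of the 7 tested were lower. Their sum was 2315 to 2413 FPKM with NT shRNA, against which 4 were lower and 1 higher. In NT shRNA and in MLX-WT, 6 were likewise lower than in the GFP control. Over all tested genes 32.6% were higher and 48.8% lower with MLX-DN than in the GFP control, and 21% and 48.7% than in NT shRNA. Osteoblast markers summed to 12.2 to 13.3 and 68.7 to 69.6, most of it Bglap2, and 4 of those 8 were under 1 FPKM in every library. Of 8 leukocyte markers 6 were under 1 FPKM in every library, with the macrophage gene Emr1 at 0, and all 8 endothelial markers were under 1. In bulk RNA, fewer cells of a type and less RNA per cell cannot be told apart, and the part of other cell types in the results below was not tested.

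Mlx RNA was far above both controls. It stood at 16.6, 17.6 and 17.1 FPKM in the 3 GFP control libraries and at 384, 400 and 398 with MLX-DN. The groups did not overlap, and the difference was 4.37 (SE 0.0596, adjusted p = 1.4e-17). Mean levels were 17.1 FPKM with NT shRNA, 644 with MLX-WT and 3.21 with MLX shRNA. The value counts RNA of the construct and of the cells' own gene together, and it checks the label, not dominant-negative action. Mlx shares 19.3% of its exon bases with Psmc3ip on the opposite strand, and it is not known here whether reads were counted by strand.

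Among the 11 tested genes of the MLX and MYC network, 5 were higher and 5 lower than in the GFP control, 32.6% and 48.8% being the shares over all tested genes. Against NT shRNA 2 were higher and 7 lower, where 21% and 48.7% of all tested genes were. Mlx is among the higher genes in both counts, and its rise includes RNA of the construct. Of the repressors that pair with MAX, Mxd1, Mxd3, Mxd4 and Mnt fell against both controls. Mxd3 went from 21.7, 21.9 and 22.9 FPKM to 11.8, 11.6 and 11.7, with no overlap, a difference of -0.82 (adjusted p = 4.7e-12) and of -0.52 against NT shRNA. Mnt, whose product also binds MLX, was at -0.42 and -0.25, Mxd4 at -0.37 and -0.30, and Mxd1 at -0.31 and -0.47. Myc fell by 0.40 and 0.33. Mga, which encodes a large MAX partner, rose by 0.32 and 0.15. Mycl1 differed from the GFP control only, with 5.05, 5.15 and 5.32 FPKM there, 14.7, 15.6 and 14.5 with MLX-DN and a mean of 15.7 with NT shRNA. Max (0.12 against the GFP control, 0.00 against NT shRNA) and Mxi1 (0.12 and -0.25) did not hold their calls or direction. Mlxip, the MondoA gene, was at 3.88, 3.86 and 4.51 FPKM in the GFP control and 4.04, 4.18 and 3.57 with MLX-DN, and these ranges overlap (difference -0.04, adjusted p = 0.54). Its sign turned to 0.05 with each library centred on its median and to 0.11 with quantile normalization. Mlxipl, the ChREBP gene, was too low to test, at no more than 0.0206 FPKM in any library.

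Txnip had the second largest fall of all named genes. Its product, thioredoxin-interacting protein, is an alpha-arrestin that lowers glucose uptake, and it is the best known target of MondoA and MLX. Txnip stood at 30.5, 29.1 and 31.0 FPKM in the GFP control and at 1.251, 1.17 and 1.51 with MLX-DN. All 3 MLX-DN libraries lay far under the lowest control library, and the difference was -3.28 (SE 0.0386, adjusted p = 3.2e-18). The mean was 39.3 FPKM with NT shRNA (difference -3.64), 37.9 with MLX-WT and 4.72 with MLX shRNA, so MLX-DN was the lowest of the 5 groups. Gm15441, a predicted gene on the opposite strand that shares 19.4% of the exon bases of Txnip, went from a mean of 14.3 FPKM to 0.531, and reads of this pair may not be separated.

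Arrdc4, another alpha-arrestin gene and known MondoA target, was below the filter for testing. It stood at 0.405, 0.354 and 0.338 FPKM in the GFP control and at 0.0039, 0.0049 and 0 with MLX-DN. The MLX-DN values lie under the floor that 3 reads would give for a transcript of 2000 bases (0.0228 to 0.0317 FPKM in these libraries, counting error only). Fitted without the filter, the difference was -0.24 (adjusted p = 1.3e-06) and -0.09 against NT shRNA (adjusted p = 0.0086), on a scale that shrinks such low levels. NT shRNA libraries held 0.200, 0.0929 and 0.0866 FPKM and MLX-WT libraries 0.738, 0.910 and 0.883. MLX shRNA libraries held 0.0271, 0 and 0 FPKM. The highest level of Arrdc4 was thus with MLX-WT. MLX-DN and MLX shRNA both lay under the level of 3 reads for 2000 bases, and the length of Arrdc4 itself was not used. Their ranges overlap, so their order cannot be given. Of the other arrestins, Arrdc3, an adaptor that limits adrenergic receptors, rose by 0.46 (0.32 against NT shRNA), Arrdc2 fell by 0.20 and 0.13, and Arrdc1 was at 0.20 and 0.10, the latter not called.

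The stretches upstream of the start sites of Txnip and Arrdc4 are shown because carbohydrate response elements lie close to the start of known targets. Both are 250 bases before the start site in RefSeq on build GRCm38.p6, read 5′ to 3′ on the gene's own strand. Capitals mark the matched letters, CACGNG repeated after 5 bases for Txnip (chr3:96557707-96557956, plus strand) and CACGTG for Arrdc4 (chr7:68749239-68749488, minus strand).
Txnip: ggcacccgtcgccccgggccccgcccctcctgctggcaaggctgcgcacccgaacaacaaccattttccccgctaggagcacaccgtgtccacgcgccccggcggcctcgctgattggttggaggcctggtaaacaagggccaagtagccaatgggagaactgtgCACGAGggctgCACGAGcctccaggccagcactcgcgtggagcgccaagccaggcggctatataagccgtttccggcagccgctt
Arrdc4: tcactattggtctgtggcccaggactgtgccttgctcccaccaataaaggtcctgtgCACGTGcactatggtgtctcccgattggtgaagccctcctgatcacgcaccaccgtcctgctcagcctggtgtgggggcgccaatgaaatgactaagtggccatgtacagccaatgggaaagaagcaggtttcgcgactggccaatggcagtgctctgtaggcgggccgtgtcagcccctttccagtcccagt
In Txnip the match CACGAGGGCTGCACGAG begins 85 bases before the start site, and in Arrdc4 the E-box begins 193 bases before it. The letters CACGTG were searched on both strands of 32851 windows that run from 250 bases before to 50 after each start, and 7.15% held them, as did 12.1% of the 8685 tested genes with a window. The strict pair, CACGTG repeated after 5 bases of any kind, was in 0 windows. The looser pair, CACGNG in place of CACGTG, where N is any base, was written after the Txnip window had been seen. It was in 16 windows (0.0487%), 10 of them of tested genes (0.115%), with Txnip among these. The 15 largest falls had 10 windows and none held CACGTG, while of 9 windows among the 15 largest rises 3 did (Mlx, Igfbp2 and Fgf21). The rise of Mlx includes RNA of the construct, and Igfbp2 and Fgf21 were lower than in NT shRNA (-0.61 and -0.47). A match is a run of letters and shows no binding.

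**Figure D1:**
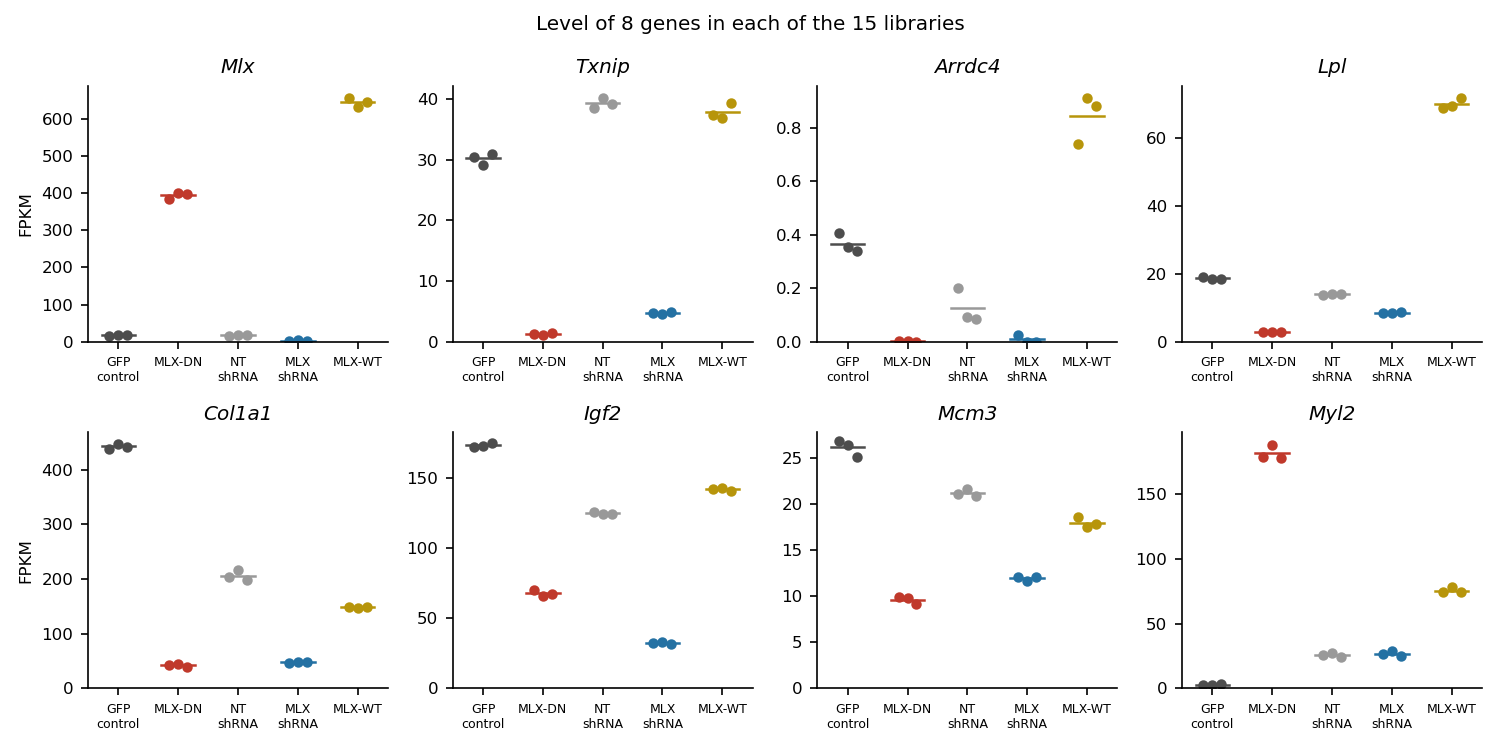
FPKM (linear axes from 0) of 8 genes in each of the 15 libraries, with a bar at each group's mean. Txnip, Lpl and Mcm3 have their lowest group mean with MLX-DN, Arrdc4 is under the level of 3 reads with both MLX-DN and MLX shRNA, and Myl2 is highest with MLX-DN, at 178 to 188 FPKM.

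The wider set of glucose-responsive targets of MLX partners did not follow Txnip. Of 18 tested, 6 were higher and 10 lower than in the GFP control (median -0.16, against -0.08 over all tested genes), and against NT shRNA 6 were higher and 8 lower (median -0.07). Over all tested genes the shares were 32.6% higher and 48.8% lower, and 21% and 48.7% against NT shRNA. Most of these counts were near those shares. Against both controls Txnip, Pfkfb3, Klf10, Fasn, Acly and Me1 were lower and Acacb, Scd1, Scd2, Rgs16 and Khk were higher. Pfkfb3, which makes the main activator of glycolysis, was at -0.22 and -0.09 against the controls, and the transcription factor gene Klf10 at -0.19 and -0.53. Khk, the fructose kinase gene, was at 0.48 and 0.35. Acacb, the acetyl-CoA carboxylase of the mitochondrial surface, went from 0.360, 0.297 and 0.360 FPKM to 2.51, 2.40 and 2.48 (0.93, and 0.74 against NT shRNA). The ranges did not overlap. Fgf21, a hormone gene, rose against the GFP control from 5.34, 6.42 and 6.15 FPKM to 32.2, 30.5 and 31.9, but it stood at 44.4 with NT shRNA, so the difference turned from 2.08 to -0.47. Gpd1 (-0.26 and 0.56) and Elovl6 (-0.42 and 0.07, the latter not called) turned as well. Acaca (-0.13) and Tkt (-0.41) were lower against the GFP control only, with -0.05 and -0.11 against NT shRNA. Hk2, hexokinase of insulin-sensitive muscle, was at 0.04 (adjusted p = 0.22) and -0.14. Ldha was not called at -0.01 and -0.04, and its sign turned to 0.08 with median centring and 0.18 with quantile normalization.

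Over all tested genes, 9723 of 11945 (81.4%) were called between MLX-DN and the GFP control, 3892 higher (32.6%) and 5831 lower (48.8%). In 9986 genes (83.6%) the libraries of the 2 groups did not overlap. Most differences were small. The median absolute difference was 0.26, with a median SE of 0.036, and 462 called genes (3.87%) changed at least 2-fold, 198 higher and 264 lower. The balance of directions moved with scaling. Higher calls were 40.03% of all calls as deposited, 51.84% with each library centred on its median (5017 higher, 4660 lower) and 50.74% with quantile normalization (4917 and 4774).

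Against NT shRNA 8331 genes (69.7%) were called, 2510 higher (21%) and 5821 lower (48.7%), and 53 (0.444%) changed at least 2-fold. Both controls gave the same direction for 5971 called genes (50%), 1803 higher (15.1%) and 4168 lower (34.9%), while 1198 were called in opposite directions. Of the 462 genes that changed at least 2-fold against the GFP control, 329 (71.2%) were called the same way against NT shRNA, 70 the opposite way and 63 not at all. The 2 controls themselves differed in 8854 genes, 300 of them at least 2-fold. Of the 462 genes, 28 (0.234% of those tested) did so by at least 2-fold against each control.

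One run of neighbouring genes on chromosome 8, from Arhgap10 to Rrad in the GRCm38 annotation, held 64 of the 198 genes that were at least 2-fold higher than in the GFP control. Of its 152 tested genes 136 were called higher, and the median difference was 0.90. The same genes had a median of 1.02 in NT shRNA against the GFP control, 0.52 in MLX-WT against it and -0.15 in MLX-DN against NT shRNA. The run was noticed in the data, and its genes are pointed out where a list below rests on them. They include Phkb, Cdh11, Calr, Herpud1, Orc6, Gins3, Rbl2, Junb and Ier2.

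**Figure D2:**
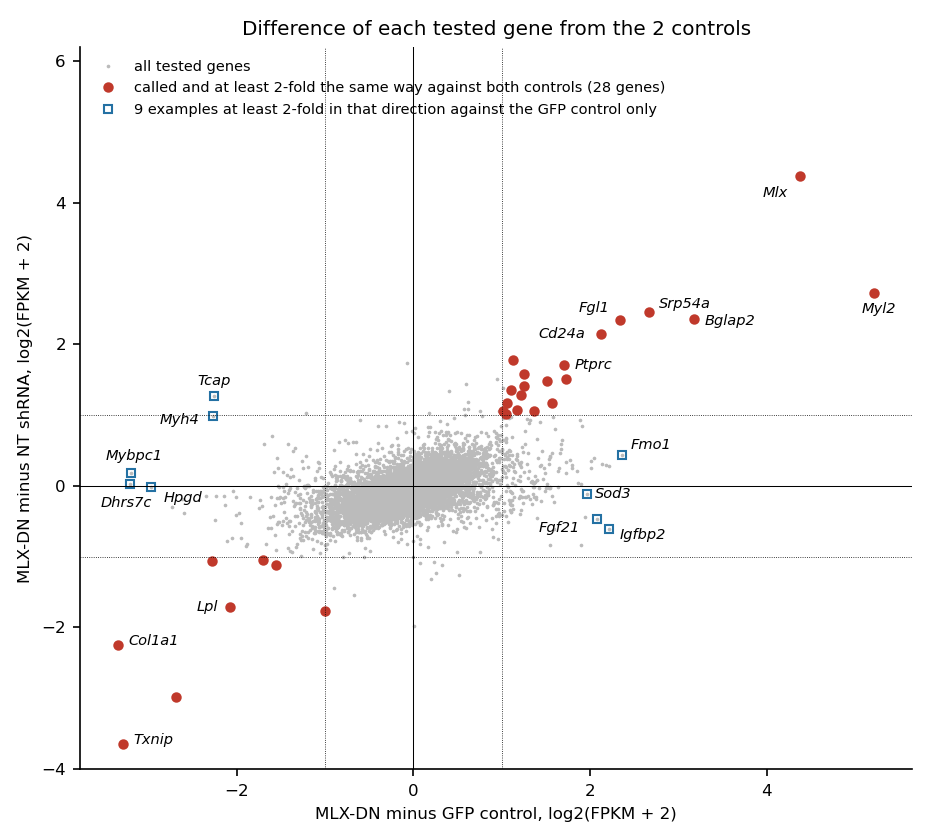
Each point is 1 of 11945 tested genes, placed by its difference between MLX-DN and the GFP control (horizontal) and between MLX-DN and NT shRNA (vertical), both in log2(FPKM + 2). The 28 genes changed at least 2-fold the same way against both controls are filled circles, and open squares mark genes such as Dhrs7c, Hpgd and Fgf21 whose difference lies in the GFP control comparison.

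The 28 genes comprised 20 that were higher and 8 that were lower. Many were not selected by the naming rule and were named after their values were seen. Besides Mlx, the higher ones were Myl2, Srp54a, Bglap2, Fgl1, Cd24a, Pvalb, Ptprc, Myh1, Lrrn1, Mybpc2, Myh2, Gsta4, Gbp8, Csrp3, Sh3bgr, Tmem176b, Fabp3, Smpx and Fez1. Fgl1 and Ptprc passed the filter only through the MLX-DN libraries, so their calls follow from the filter and test nothing. The lower ones were Txnip, its antisense neighbour Gm15441, Col1a1, Dcn, Lpl, Ly6c2, Fibin and Tk1. Of the 20, 6 belong to the sarcomere list, namely Myl2, Myh1, Myh2, Mybpc2, Csrp3 and Smpx.

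Myl2, the regulatory light chain of slow and cardiac myosin, had the largest rise. It went from 2.90, 2.91 and 3.03 FPKM to 179, 188 and 178, a difference of 5.21 (SE 0.0457, adjusted p = 1.5e-19) and of 2.73 against NT shRNA. Means were 25.7 FPKM with NT shRNA, 75.5 with MLX-WT and 26.7 with MLX shRNA, so MLX-DN lay above all 4 other groups by at least 2-fold. Myh1, a fast myosin heavy chain, went from 222, 221 and 230 FPKM to 542, 529 and 542 (1.255, and 1.58 against NT shRNA). Mybpc2, the fast form of myosin-binding protein C, went from 5.30, 5.30 and 5.29 to 19.3, 18.4 and 18.9 (1.52 and 1.48). None of these ranges overlapped.

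Fgl1, which encodes a secreted fibrinogen-like protein, was near 0 outside MLX-DN. It was listed at 0.0539, 0 and 0.0231 FPKM in the GFP control and at 8.47, 7.45 and 8.87 with MLX-DN, and the means of the other 3 groups were 0.0216 to 0.0534. Ptprc, the leukocyte surface phosphatase CD45, was listed at 0, 0 and 0.0099 FPKM in the GFP control, at 4.39, 4.52 and 4.74 with MLX-DN and at 0 in all 9 other libraries. The other leukocyte markers did not rise with it as a group: Emr1 stayed at 0 in all libraries, and 6 of the 8 markers were under 1 FPKM everywhere. Srp54a, a subunit of the signal recognition particle, went from 18.9, 18.6 and 18.2 FPKM to 125, 132 and 128 (2.66, SE 0.388, and 2.46 against NT shRNA), but near-identical copies of this gene exist and its value is uncertain. Bglap2, an osteocalcin gene, went from 4.71, 4.57 and 4.51 to 57.0, 57.0 and 58.5 (3.17 and 2.36), and its means with MLX-WT and MLX shRNA were 63.0 and 64.1. The surface protein gene Cd24a went from 9.91, 9.99 and 9.54 to 49.1, 49.0 and 50.1 (2.12 and 2.15). Gene copies of Bglap2 exist too, and Bglap itself went from a mean of 0.264 to 2.81 FPKM.

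Lpl, which encodes the lipase that releases fatty acids from circulating triglyceride, was lowest with MLX-DN of all 5 groups. It went from 19.02, 18.4 and 18.6 FPKM to 2.79, 2.89 and 2.99, a difference of -2.08 (adjusted p = 8.9e-18) and of -1.71 against NT shRNA. Means were 13.98 FPKM with NT shRNA, 70.0 with MLX-WT and 8.55 with MLX shRNA. The surface antigen gene Ly6c2 went from 13.4, 13.01 and 13.6 to 2.96, 3.29 and 3.43 (-1.55 and -1.12), and it too lay at least 2-fold under every other group, as did Txnip. Fibin, a secreted protein gene, went from 15.8, 15.7 and 15.8 to 1.58, 1.71 and 1.69 (-2.28 and -1.06).

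Of the 15 largest rises, Myl2, Mlx, Bglap2, Srp54a, Fgl1 and Cd24a were at least 2-fold against both controls. Fmo1 (2.36), Cp (2.18), Ppp1r14c (2.05), Phkb (2.01) and Fxyd6 (2.005) rose against both, but only by 0.43, 0.29, 0.40, 0.36 and 0.26 against NT shRNA. Fmo1, a flavin monooxygenase gene, shows the pattern, with 3.24, 3.20 and 3.05 FPKM in the GFP control, 24.4, 24.1 and 24.9 with MLX-DN and a mean of 17.6 with NT shRNA. Igfbp2 (2.21), Fgf21 (2.08) and Sod3 (1.96) were lower than in NT shRNA, at -0.61, -0.47 and -0.11. Sod3, the extracellular superoxide dismutase, stood at means of 2.49 FPKM in the GFP control, 15.5 with MLX-DN and 16.8 with NT shRNA.

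Of the 15 largest falls, Col1a1, Txnip and Fibin were at least 2-fold against both controls. Gja5 (-2.73), Crym (-2.62), Cdh10 (-2.60), Cd36 (-2.35), Cdh11 (-2.25), Scn7a (-2.24) and Pltp (-2.15) were lower against both, by 0.14 to 0.48 against NT shRNA. Cd36, the fatty acid uptake receptor gene, went from 10.1, 9.86 and 9.64 FPKM to 0.330, 0.286 and 0.382, and its mean with NT shRNA was already 0.581. Pltp overlaps Ctsa on the opposite strand. Dhrs7c (-3.21), Hpgd (-2.97), Mybpc1 (-3.20), Myh4 (-2.26) and Tcap (-2.25) were not lower than in NT shRNA, where their differences were 0.02, -0.01, 0.19, 0.99 and 1.28, the first and second of them not called. Hpgd, which degrades prostaglandins, stood at 13.8, 14.1 and 14.3 FPKM in the GFP control and under 0.1 in every MLX-DN library, with a mean of 0.0766 with NT shRNA.

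Nearly all genes of DNA replication and mitosis were lower with MLX-DN against both controls. Shares over all tested genes, against which the counts of each list below are to be read, were 32.6% higher and 48.8% lower for the GFP control, 21% and 48.7% for NT shRNA, and 15.1% and 34.9% for both. Of 41 tested genes of DNA replication 39 were lower and 2 higher than in the GFP control, with a median of -0.76. Against NT shRNA all 41 were lower, with a median of -0.55, and 39 were lower against both, where 34.9% of all tested genes were. The 2 that were higher than in the GFP control, Orc6 (1.098) and Gins3 (0.27), lie in the chromosome 8 run and were at -0.34 and -0.31 against NT shRNA. Without that run the list had 39 of 39 genes lower. Of 36 genes of mitosis and the spindle, all 36 were lower than in the GFP control (median -0.78) and 35 were lower against NT shRNA (median -0.34). The remaining one, the hyaluronan receptor gene Hmmr, was at -0.33 and -0.04. MLX-WT also had 37 of 41 replication genes and 30 of 36 mitosis genes lower than the GFP control (medians -0.37 and -0.23). NT shRNA had 29 and 36 lower (medians -0.27 and -0.35). Of all 11945 tested genes, 5100 and 4433 were lower in these comparisons. Against MLX-WT, MLX-DN had 35 and 36 lower (medians -0.38 and -0.47), where 4651 of all tested genes were.

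The replication helicase gene Mcm3 went from 26.9, 26.4 and 25.2 FPKM to 9.97, 9.80 and 9.15. The groups did not overlap, and the difference was -1.28 (adjusted p = 1.5e-14), or -0.997 against NT shRNA, whose mean was 21.2. Mcm2 and Mcm5 were at -1.32 and -1.37 (-0.82 and -0.93 against NT shRNA). Tk1, the S phase thymidine kinase, went from 28.2, 27.99 and 28.6 FPKM to 7.27, 8.29 and 6.47 (-1.70 and -1.05). Uhrf1, which maintains DNA methylation at the fork, was at -1.56 and -0.90, and the ligase gene Lig1 at -1.29 and -0.68. Among mitotic genes, the Aurora kinase gene Aurkb went from 14.1, 13.97 and 14.7 to 5.20, 4.42 and 4.89 (-1.251 and -0.76), with no overlap. Plk1, a kinase of mitotic entry, was at -1.18 and -0.47. Foxm1, a transcription factor of the G2 phase, was at -0.99 and -0.61, Incenp at -1.12 and -0.66, Cdca8 at -1.01 and -0.50, and Kif2c at -1.03 and -0.44.

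Among 19 G1 cyclins, kinases and their inhibitors 3 were higher and 13 lower than in the GFP control (median -0.28), and 3 were higher and 13 lower than in NT shRNA (median -0.34), with 1 higher and 9 lower against both. Over all tested genes 48.8% were lower than in the GFP control, 48.7% than in NT shRNA and 34.9% than in both. Ccnd3, the D-type cyclin of differentiating muscle, went from 247, 251 and 245 FPKM to 94.6, 94.8 and 88.0 (-1.40 and -0.57). Cdk4 was at -0.86 and -0.58, Ccne1 at -0.82 and -0.67, Cdk2 at -0.65 and -0.61, and the inhibitor gene Cdkn2c at -0.66 and -0.35. Cdk4 overlaps Tspan31 on the opposite strand. The cyclin gene Ccnd2 was the one that rose against both (0.32 and 0.53). Rbl2 (0.64 and -0.22), in the chromosome 8 run, and E2f2 (0.74 and -0.58) turned with the control.

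**Figure D3:**
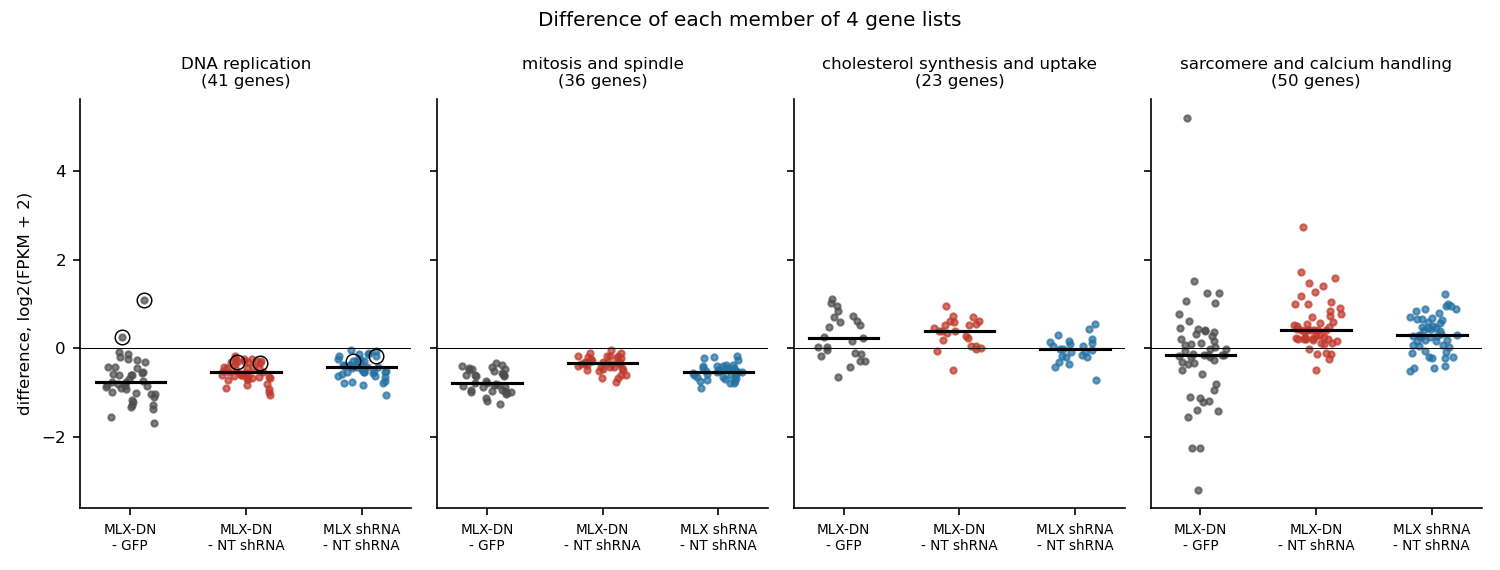
Difference of each tested member of 4 gene lists in log2(FPKM + 2), for MLX-DN against the GFP control, MLX-DN against NT shRNA and MLX shRNA against NT shRNA, with a bar at the median. Replication and mitosis genes lie under 0 in all 3 comparisons apart from Orc6 and Gins3 (circled), and the sarcomere list moves from a median of -0.15 to 0.41 with the change of control.

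Genes of cholesterol synthesis and uptake rose against both controls more often than they fell. Of 23 tested, 13 were higher and 7 lower than in the GFP control (median 0.24), and 17 were higher and 1 lower than in NT shRNA (median 0.39). All 13 that rose against the GFP control also rose against NT shRNA, where 15.1% of all tested genes were higher against both. Idi1, an isomerase of isoprenoid units, went from 14.1, 13.8 and 13.8 FPKM to 29.0, 29.3 and 32.1 (1.02, and 0.96 against NT shRNA), and the ranges did not overlap. Sc4mol, a sterol demethylation enzyme, was at 0.96 and 0.72, Sc5d at 0.85 and 0.60, Hsd17b7 at 0.73 and 0.53, and Nsdhl at 0.70 and 0.61. Srebf2, the transcription factor gene of this pathway, was the one lower against both (-0.65 and -0.48).

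Fatty acid synthesis genes moved in both directions. Of 17 tested genes 4 were higher and 12 lower than in the GFP control (median -0.37), and 4 were higher and 9 lower than in NT shRNA (median -0.09). Against both, 9 were lower, where 34.9% of all tested genes were, and 4 were higher, namely Acacb, Scd1, Scd2 and Acss2. Acss2, which makes acetyl-CoA from acetate, went from 5.07, 5.03 and 4.65 FPKM to 12.8, 11.7 and 12.3 (1.04 and 0.68). The desaturase gene Scd2 went from 218, 216 and 220 to 302, 302 and 304 (0.47 and 0.61), and Scd1 was at 0.52 and 0.29. These ranges did not overlap. Acly, which makes cytosolic acetyl-CoA from citrate, went from 42.0, 42.0 and 43.1 to 30.4, 29.8 and 29.7 (-0.47 and -0.35). Fasn, the fatty acid synthase, was at -0.41 and -0.18, Me1, a source of NADPH, at -0.37 and -0.12, and Mlycd at -0.64 and -0.28. The desaturases of polyunsaturated fatty acids, Fads1 and Fads2, were at -0.73 and -0.86 against the GFP control and at -0.15 and -0.09 against NT shRNA.

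In the list of fatty acid oxidation and lipid storage 7 of 22 genes were higher and 13 lower than in the GFP control (median -0.29), and 7 were higher and 8 lower than in NT shRNA (median -0.01). Besides Lpl and Cd36, Cpt1a, which admits fatty acids to mitochondria, went from 13.4, 13.5 and 14.1 FPKM to 7.03, 7.41 and 7.30 (-0.76 and -0.27). Pdk4, a kinase that restrains glucose oxidation, was lower than in the GFP control only (-1.195 and 0.02). Angptl4, an inhibitor of lipoprotein lipase, was higher than in the GFP control and lower than in NT shRNA (0.93 and -0.32).

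For muscle genes the result depended on the control. Of 50 sarcomere and calcium handling genes 20 were higher and 27 lower than in the GFP control (median -0.15, turning to 0.03 with quantile normalization), while 44 were higher and 5 lower than in NT shRNA (median 0.41). Against both controls 20 were higher and 4 lower, where 15.1% and 34.9% of all tested genes were. Actc1, cardiac alpha actin, went from 1441, 1457 and 1450 FPKM to 557.5, 558.6 and 542.7, but its mean with NT shRNA was 467.2 (-1.39 and 0.24). Myl4, an embryonic light chain, went from 1801, 1811 and 1808 to 609.9, 632.5 and 607.9 (-1.55 and 0.40). Both thus lay between the controls, and closer to NT shRNA. Myh4, a fast heavy chain, went from 159, 155 and 161 to 31.2, 31.4 and 31.7, with 14.8 for NT shRNA, and Tcap and Mybpc1 had the same order of groups. The 4 genes lower against both were Ckm, muscle creatine kinase (-1.12 and -0.49), the calcium pump gene Atp2a1 (-0.94 and -0.24), Sgca (-0.59 and -0.13) and Cacng1 (-0.19 and -0.10). The -0.10 of Cacng1 was near the median over all tested genes against NT shRNA, -0.08. Ckm and Atp2a1 overlap other genes on the opposite strand. Ryr1, the calcium release channel, was at 0.04, not called, and -0.12.

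Among 19 myogenic transcription factors and their regulators 6 were higher and 8 lower than in the GFP control, with a median of -0.01 that turned to 0.08 with median centring and 0.03 with quantile normalization. These counts were near the shares over all tested genes, 32.6% and 48.8%. Against NT shRNA 8 were higher and 8 lower (median -0.03), where 21% and 48.7% of all tested genes were. Myog, the factor that drives differentiation, went from 442, 449 and 444 FPKM to 712, 718 and 689 (0.66), and its mean with NT shRNA was 656 (0.10). Pax7, a factor of satellite cells, went from 0.768, 0.878 and 0.969 to 3.83, 4.14 and 3.68 (1.03 and 0.28). These groups did not overlap. Id1 and Id3, whose products block MyoD, fell against both, Id1 from 63.1, 62.4 and 60.9 to 25.4, 24.7 and 23.0 (-1.28 and -0.73) and Id3 by 0.98 and 0.82. Mef2c (-1.43), Myf5 (-1.11) and Myf6 (-1.24) were low against the GFP control and at 0.16, 0.12 and -0.01 against NT shRNA, Myf6 not called there. Myod1 was at 62.6, 60.7 and 59.9 FPKM in the GFP control and 66.4, 68.6 and 58.5 with MLX-DN, and the ranges overlap (0.07, adjusted p = 0.13, and -0.55 against NT shRNA).

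Extracellular matrix genes held one of the largest falls. Col1a1, a chain of type I collagen, went from 438, 448 and 442 FPKM to 43.1, 43.7 and 39.0, a difference of -3.34 (SE 0.0365, adjusted p = 1.5e-18). Its means were 206 FPKM with NT shRNA, 148 with MLX-WT and 47.7 with MLX shRNA, and the difference from NT shRNA was -2.24. Col1a2, the other chain, went from 524, 529 and 528 to 207, 206 and 195 (-1.37 and -0.63), so the chains of this collagen fell by unequal amounts. Col3a1 was at -0.60 and -0.65, the decorin gene Dcn at -1.0 and -1.77, and Thbs2, a thrombospondin, at -1.42 and -0.87. Of 38 tested matrix genes 12 were higher and 20 lower than in the GFP control (median -0.11), and 6 were higher and 31 lower than in NT shRNA (median -0.33). Against both, 18 were lower, and Timp3, Timp1, Thbs1 and Lox were higher. Timp3, an inhibitor of metalloproteinases, went from 21.1, 20.6 and 21.4 to 83.2, 82.3 and 84.5 (1.89 and 0.93). Col6a3 turned with the control (-1.34 and 0.53).

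Targets of TGF-beta and serum response factor had 8 of 24 higher and 16 lower than in the GFP control (median -0.22) and 8 higher and 13 lower than in NT shRNA (median -0.15). Over all tested genes 32.6% were higher and 48.8% lower than in the GFP control and 21% and 48.7% than in NT shRNA, so the lower count against NT shRNA was near the share of all genes. Cnn2, a calponin gene, went from 159, 159 and 158 FPKM to 75.7, 80.0 and 76.5 (-1.02 and -0.28). Actg2, an enteric smooth muscle actin, was at -1.50 and -0.23, Cnn1 at -0.93 and -0.28, Lmod1 at -0.82 and -0.18, and Smtn at -0.76 and -0.18. Acta2, smooth muscle actin, was at -0.62 and -0.06, the latter not called. Ankrd1, a stress-induced titin partner, rose from 462, 463 and 463 to 914, 916 and 942 (0.99 and 0.72). Myl9, a myosin light chain gene, turned with the control (-1.255 and 0.25).

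Among the insulin-like growth factor (IGF) genes, the growth factor fell and the RNA of the neighbouring locus rose. Igf2, an autocrine growth factor of myoblasts, went from 172, 172 and 175 FPKM to 70.1, 65.7 and 67.3, a difference of -1.33 (SE 0.0234, adjusted p = 2.1e-16). Its mean was 125 FPKM with NT shRNA (-0.86), 142 with MLX-WT and 32.2 with MLX shRNA, so MLX-DN and MLX shRNA both lay under both controls. H19, the imprinted noncoding RNA beside Igf2, went from 1543, 1578 and 1568 to 3337, 3350 and 3239 (1.08, and 0.51 against NT shRNA). Neither gene's groups overlapped. Igf1 rose against the GFP control (0.27) and was lower than in NT shRNA (-0.40), at levels of 0.79 to 1.54 FPKM.

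Of 19 tested IGF pathway genes 7 were higher and 12 lower than in the GFP control (median -0.21) and 3 were higher and 13 lower than in NT shRNA (median -0.20). The receptor genes Igf1r (4.74, 4.80 and 4.81 FPKM to 2.52, 2.51 and 2.40, a difference of -0.60, and -0.26 against NT shRNA) and Igf2r (-0.62 and -0.28) fell against both. Insr, the insulin receptor, was at 0.24 and -0.13. Of the adaptors and kinases downstream, Irs2 (-0.21 and -0.20), Akt1 (-0.43 and -0.32) and Akt2 (-0.09 and -0.09) were lower against both, although Akt2 was at 0.00 with median centring, and Irs1 (-0.36 and -0.003) and Grb14 (-0.18 and -0.04) against the GFP control only. Among binding proteins, Igfbp3 (-0.67 and -0.43) and Igfbp7 (-0.53 and -0.59) fell and Igfbp4 rose (0.75 and 0.28) against both. Igfbp2 (2.21 and -0.61), Igfbp5 (0.07 and -0.41) and Igfbp6 (-0.75 and 0.12) turned with the control. Pappa, the protease that frees IGF from binding proteins, was at -0.24 and -0.15, and Igf2bp2, an RNA-binding protein gene, at 1.36 and -0.01.

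**Figure D4:**
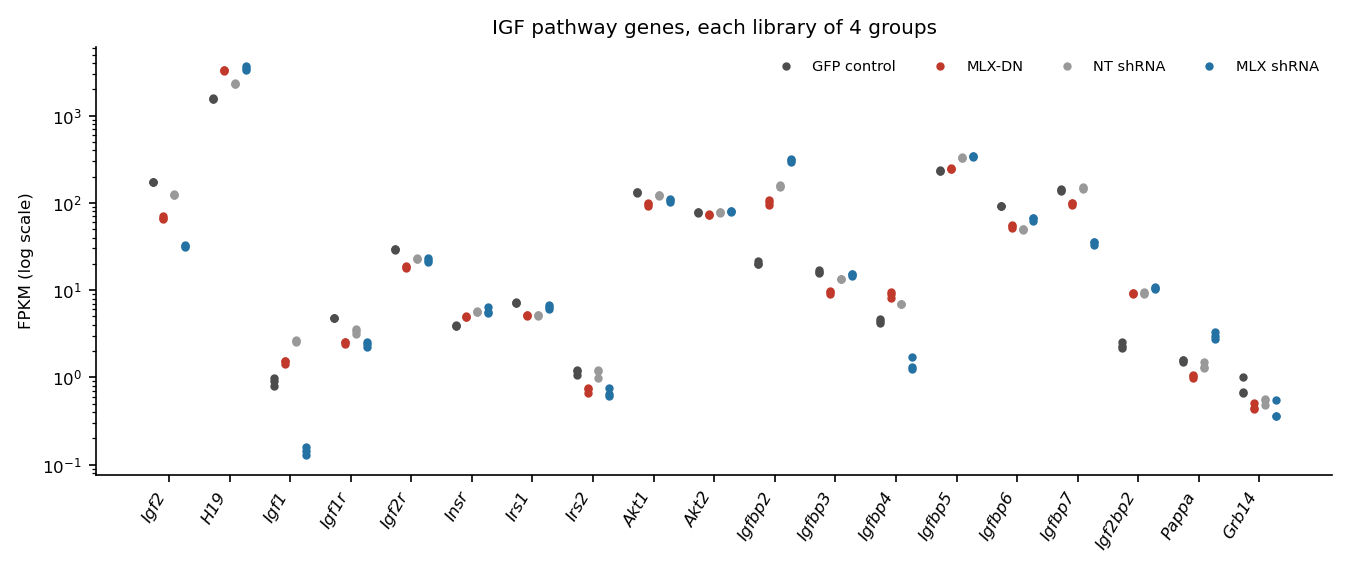
FPKM on a log axis for 19 IGF pathway genes in each library of the GFP control, MLX-DN, NT shRNA and MLX shRNA. Igf2 is lower with MLX-DN (65.7 to 70.1 FPKM) and MLX shRNA than in both controls, H19 is higher, and Igfbp2 and Igf2bp2 sit apart in the GFP control.

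Of 62 tested secreted muscle factors 23 were higher and 33 lower than in the GFP control (median -0.09, turning to 0.02 with quantile normalization) and 18 were higher and 32 lower than in NT shRNA (median -0.10), with 11 and 21 against both. Apart from the 18, these counts are near the shares over all tested genes, which were 32.6% and 48.8%, 21% and 48.7%, and 15.1% and 34.9%. The chemokine gene Ccl7 went from 16.1, 16.9 and 14.8 FPKM to 3.38, 3.51 and 4.37 (-1.64 and -0.59), and its mean with MLX-WT was 75.1. Ptn, pleiotrophin, went from 17.4, 16.1 and 16.5 to 2.96, 2.76 and 2.53 (-1.97 and -0.39). Angpt1, angiopoietin 1, was at -1.42 and -0.10, and Vegfa rose (0.85 and 0.22).

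Most ER stress and ATF4 response genes were higher than in the GFP control but not than in NT shRNA. Of 38 tested, 26 were higher and 5 lower (median 0.48) against the first, and 9 higher and 22 lower (median -0.12) against the second. Over all tested genes 32.6% were higher than in the GFP control, and the counts against NT shRNA were near the shares of 21% higher and 48.7% lower. Calr and Herpud1 lie in the chromosome 8 run, and without them 24 of 36 were higher. Hspa5, the chaperone BiP, went from 323, 319 and 316 FPKM to 729, 734 and 750 (1.204 and 0.31). Dnajb9, its cochaperone, went from 15.8, 14.6 and 14.9 to 47.5, 47.8 and 50.8 (1.57 and 0.46). These 2 rose against both controls. Calr, Herpud1 and Psph were at 1.45, 1.37 and 1.11 against the GFP control and at -0.21, 0.04 and -0.10 against NT shRNA, the last 2 of these not called. Sesn2, a stress-induced inhibitor of growth signalling, fell (-0.72 and -0.32).

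The hypoxia response had 14 of 20 genes higher and 3 lower than in the GFP control (median 0.31), but 6 higher and 7 lower than in NT shRNA (median -0.04). Bnip3, a mitophagy receptor, went from 23.8, 21.7 and 23.7 FPKM to 69.9, 69.3 and 71.7 (1.53 and 0.31), and Pdk1 was at 1.255 and 0.20. Ddit4, an inhibitor of mTORC1, fell from 43.7, 43.8 and 41.3 to 21.2, 20.5 and 20.2 (-0.99 and -0.36), and P4ha2, which hydroxylates collagen, by 0.63 and 0.56. Ndrg1 turned with the control (0.60 and -0.46).

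In glycolysis and lactate handling 6 of 26 genes were higher and 14 lower than in the GFP control (median -0.15, turning to 0.06 with quantile normalization) and 8 were higher and 14 lower than in NT shRNA (median -0.06). Hk1, the general hexokinase, went from 44.1, 45.5 and 44.5 FPKM to 23.2, 22.7 and 21.9 (-0.92 and -0.46), and Eno1, enolase, was at -0.60 and -0.39. Slc16a1, a lactate carrier, Pfkp, Pgam2 and Ldhb turned with the control (0.81 and -0.07, 0.49 and -0.61, -0.84 and 0.62, -0.57 and 0.45). Of 11 pentose phosphate genes 8 were lower and 1 higher than in the GFP control (median -0.34) and 7 lower and 1 higher than in NT shRNA (median -0.13). G6pdx, the entry enzyme, went from 32.4, 32.7 and 33.1 to 19.4, 19.7 and 19.2 (-0.70 and -0.24). It overlaps Ikbkg on the opposite strand. H6pd, the form of this enzyme in the endoplasmic reticulum, was at -0.43 and -0.42, Pgls at -0.52 and -0.24, Taldo1 at -0.34 and -0.13, and Prps2 at -0.47 and -0.25.

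Subunits of oxidative phosphorylation showed 25 of 77 higher and 31 lower than in the GFP control (median -0.04, turning to 0.06 with median centring) but 48 higher and 6 lower than in NT shRNA (median 0.14). Cytosolic ribosomal proteins had 56 of 73 genes lower and 3 higher than in the GFP control (median -0.28) but 11 lower and 28 higher than in NT shRNA (median 0.04). Their exceptions against the GFP control were Rps24, Rps25 and Rps27l, at 0.15, 0.19 and 0.13. For the ribosomal list the direction thus turned with the choice of control. For oxidative phosphorylation the higher count against the GFP control was near the share over all tested genes, 32.6%. The lower count there was under the share of 48.8%, so that list showed no fall to turn.

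Interferon response and antigen presentation genes had 5 of 28 higher and 18 lower than in the GFP control (median -0.26), and 4 higher and 7 lower than in NT shRNA (median -0.05). The 7 were lower against both. Among genes with a mean FPKM of at least 5, 5 rather than 18 of the list were lower than in the GFP control. Irf1, a transcription factor of this response, went from 13.9, 14.4 and 13.9 FPKM to 5.46, 6.25 and 6.37 (-1.004 and -0.53). Tapbp, which loads peptide on class I molecules, went from 24.7, 25.0 and 25.5 to 13.2, 13.6 and 13.2 (-0.82 and -0.54). The immunoproteasome gene Psmb10 was at -0.91 and -0.37. The class I genes B2m (0.37 and 0.28), H2-K1 (0.29 and 0.18) and H2-D1 (0.15 and 0.13) and the guanylate-binding protein gene Gbp6 (0.46 and 0.95) were higher against both.

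Most immediate early genes were lower than in each control. Of 18 tested, 13 were lower and 4 higher than in the GFP control (median -0.33), and 16 were lower and none higher than in NT shRNA (median -0.29), with 11 lower against both. Of all tested genes 48.8%, 48.7% and 34.9% were lower in these comparisons. Egr3 went from 29.96, 30.9 and 29.5 FPKM to 7.77, 8.03 and 7.23 (-1.73 and -0.20), and Egr1 from 102, 99.9 and 97.6 to 46.5, 47.4 and 44.9 (-1.08 and -0.33). Nr4a1, a nuclear receptor of muscle, was at -1.13 and -0.49, and the ERK phosphatase gene Dusp6 at -0.55 and -0.15. The 4 that were higher than in the GFP control, Junb (0.91), Atf3 (0.47), Ier2 (0.41) and Dusp1 (0.07), were at -0.24, -0.13, -0.47 and -0.75 against NT shRNA, and Junb and Ier2 lie in the chromosome 8 run. The call of Dusp1 (adjusted p = 0.036) was lost without GFP control replicate 1 or 3 (adjusted p = 0.14 and 0.11) and without MLX-DN replicate 1 or 2 (adjusted p = 0.066 and 0.12).

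Lysosome and autophagy genes had 13 of 43 higher and 26 lower than in the GFP control (median -0.21) and 9 higher and 27 lower than in NT shRNA (median -0.14), with 6 and 20 against both. The shares over all tested genes were 32.6% and 48.8%, 21% and 48.7%, and 15.1% and 34.9%, and the higher counts were near them. Psap, prosaposin, went from 372, 378 and 376 FPKM to 189, 193 and 183 (-0.99 and -0.65). The glycogen-degrading enzyme gene Gaa was at -0.63 and -0.28, and Tfe3, a transcription factor of lysosomal genes, at -0.60 and -0.39. Asah1, a ceramidase gene, rose (0.59 and 0.17).

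**Figure D5:**
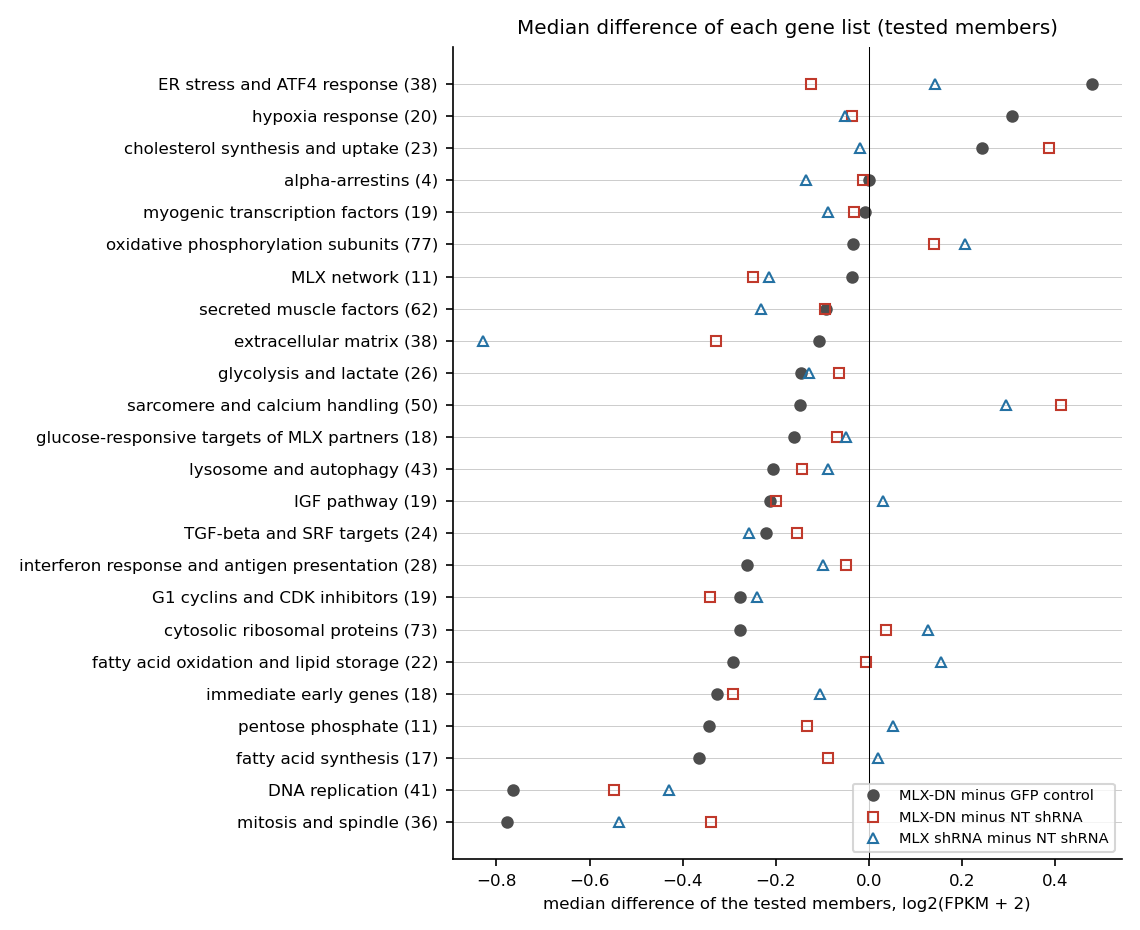
Median difference of the tested members of each gene list in log2(FPKM + 2), with the number of members in brackets, for 3 comparisons. Replication and mitosis lie furthest below 0 in MLX-DN against the GFP control, and the circles and squares fall on opposite sides of 0 for ER stress, hypoxia, sarcomere, ribosomal protein and oxidative phosphorylation genes.

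Reducing Mlx RNA with a hairpin was the other approach of the series toward less MLX activity, which was not measured for either construct. That comparison (MLX shRNA against NT shRNA, 8369 genes or 70.1% called) shares no library with MLX-DN against the GFP control. Both comparisons called 6976 genes, 4401 in the same direction (2761 lower and 1640 higher) and 2575 in opposite directions. The 4401 were 45.3% of the calls with MLX-DN and 52.6% of those with the hairpin. Across genes the 2 differences had r = 0.23 and rho = 0.24, a description only, as genes are not independent. DNA replication and mitosis genes fell in both, with 39 of 41 and 36 of 36 lower with the hairpin (medians -0.43 and -0.54), and 37 and 35 of them were lower in all 3 comparisons. Txnip (-2.62 with the hairpin), Col1a1 (-2.06), Igf2 (-1.89), Thbs2 (-2.22) and Dcn (-2.96) fell as well, and Cd24a (1.73) and Bglap2 (2.51) rose. Of the 28 genes that changed at least 2-fold against both controls, 18 were called the same way with the hairpin. Of the 5971 genes called the same way against both controls, 3354 were. The NT shRNA libraries serve both in choosing these genes and in the hairpin comparison. The same holds for the counts lower in all 3 comparisons, so this agreement is not independent. Cholesterol synthesis did not follow, with a median of -0.02, Idi1 at -0.18 and Nsdhl at -0.20.

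A test of the difference between these 2 effects called 8937 genes (74.8%). Myl2 rose with MLX-DN and was at 0.05 with the hairpin, not called, and Lpl fell by 2.08 with MLX-DN and by 0.60 with the hairpin. Cilp, a cartilage matrix gene, rose by 1.90 with MLX-DN and fell by 4.56 with the hairpin, but the controls differ there, at means of 6.08 FPKM for GFP and 51.8 for NT shRNA. MLX-DN was at 28.1 FPKM, between them, and MLX shRNA at 0.281. Against NT shRNA, MLX-DN was at -0.84 for Cilp.

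MLX-DN and MLX-WT differed in 8618 genes (72.1%), 157 of them at least 2-fold, 44 higher and 113 lower with MLX-DN. Lpl had the largest difference among the named genes, at a mean of 2.89 FPKM with MLX-DN and 70.0 with MLX-WT, a difference of -3.88. Txnip (-3.59) and Arrdc4 (-0.51, fitted without the filter) differed in the same direction. Mybpc2 was at 18.9 and 19.4 FPKM (difference -0.03, not called), and the chemokine gene Ccl7 was at 3.75 and 75.1.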

How the data were processed

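Poly(A) RNA of 15 C2C12 libraries was sequenced with a stranded TruSeq kit, per the labels' protocols. The authors deposited 1 table of 23352 genes with log2(FPKM + 2) values, the offset being read from its lowest value, which is exactly 1. The submitters' processing notes name CASAVA, TopHat2, STAR and mm9. Their roles, and whether reads were counted by strand, are not given in the sources used here. Each column was matched to a sample by the description in its label, and groups and replicates were taken from the titles. A gene entered the test when 3 or more of the 15 libraries had an FPKM of 1 or higher, which left 11945 genes. They were fitted with limma 3.58.1 in R 4.3.3, on the values as deposited, with 1 mean for each of 5 groups, a variance trend, two-sided tests and Benjamini-Hochberg adjustment over all tested genes at 0.05. The fit was tested on simulated data.

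The spacing of low FPKM values in 15972 genes with 1 annotated length gave each depth. At that depth 65.3 to 67.8% of the 2018 to 2212 low values of each library were whole reads to within 0.05. At other depths tried the share was at most 13%. Opposite-strand overlaps were taken from the GRCm38 annotation, where they covered at least 10% of exon bases. Promoter windows came from RefSeq on GRCm38.p6 and were used for their letters only, as the table holds no coordinates.

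Members and gene lists were chosen with earlier results of these data known. Named were Mlx and its network, every member of the glucose-responsive, alpha-arrestin and IGF lists and of lists of up to 8 tested members, the 15 largest rises and falls (called, libraries not overlapping, mean FPKM of at least 2 in the higher group, no predicted gene), up to 6 called members with the largest change in each other list, the 5 lowest p in each direction for the difference from MLX shRNA, and the 10 largest in each direction, by the smaller difference, among genes called the same way against both controls. Outside this rule, and named after their values were seen, were Myod1, Cdh15, Itga7, Gm15441, Orc6, Gins3, Rbl2, Ier2, Pvalb, Myh2, Gbp8, Csrp3, Sh3bgr, Tmem176b, Fabp3, Smpx, Fez1, Hmmr, Ccnd2, Srebf2, Ckm, Atp2a1, Sgca, Cacng1, Ryr1, Timp1, Thbs1, Lox, Rps24, Rps25, Rps27l, B2m, H2-K1, H2-D1, Gbp6, Atf3 and Dusp1. The alternatives were offsets of 1 and 0.1, no filter, a mean FPKM of at least 5, median centring, quantile normalization, no variance trend, only the groups compared, a replicate block, leaving out each library, NT shRNA as the control and, added after seeing the data, removal of the chromosome 8 run. Some members that the rule names are not reported here.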

Additional observations from a re-analysis of the deposited data

Results flagged for a closer look

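The difference from the control was itself different between MLX-DN and MLX shRNA in 8937 genes (limma, adjusted p under 0.05), each construct being set against its own control. The genes below are among those with the lowest p in each direction. Myl2 differed by 5.16, Sod3 by 4.81, Mfap5 by 4.43 and Cilp by 6.46, all higher with MLX-DN on this measure. Hpgd differed by -2.93, Myh4 by -2.68, Tspan7 by -3.13, Actc1 by -1.84 and Ly6e by -1.98. The controls differ for many of these genes. Mfap5, a microfibril gene, had differences of 1.59 and -0.61 for MLX-DN against the GFP control and NT shRNA, and of -2.84 for MLX shRNA. Tspan7 was at -1.69, 0.59 and 1.44 in the same 3 comparisons. Ly6e, a surface antigen gene, was at -0.87 and -0.26 against the controls and at 1.11 with MLX shRNA.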

How the results depend on the processing

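Among the counts over all genes and the Txnip difference, 100 of 102 values under other settings stayed on their side of the threshold or within 1.5 times. The exceptions were the 462 genes changed at least 2-fold, which became 709 with an offset of 1, 1196 with an offset of 0.1 and, with NT shRNA as the control, 53. The gene lists were less stable. Under other settings 727 of their values stayed the same and 113 moved, 29 of these with median centring and 21 with quantile normalization. With NT shRNA as the control 32 list values moved and 24 did not. Leaving out 1 library gave 9449 to 9534 calls against the GFP control, 454 to 466 genes changed at least 2-fold, 5518 to 5864 called the same way against both controls, and -3.33 to -3.25 for Txnip. Without the chromosome 8 run these counts were 9578, 396 and 5933. Same-numbered libraries of MLX-DN and the GFP control did not deviate together (r = -0.008, 0.046 and -0.032), so the numbers were not used as pairs, and with a replicate block 9754 genes were called.

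Of the differences of named genes under other settings, 3235 kept direction and side of the threshold, 7 gained and 11 lost the call and 9 changed sign. Those were Akt2 (0.000527), Cdh15 (0.0442), Ldha (0.0756) and Mlxip (0.0540) with median centring, Des (0.16), Ldha (0.18) and Mlxip (0.11) with quantile normalization, and Mlxip without GFP control replicate 3 (0.0132) or MLX-DN replicate 3 (0.00813), its range being -0.0668 to 0.0132 with 1 library left out. With NT shRNA as the control 48 named genes changed sign, to Actc1 0.24, Angptl4 -0.32, Atf3 -0.13, Calr -0.21, Cd34 -1.26, Cilp -0.84, Col6a3 0.53, Dhrs7c 0.0234, Dpt -1.12, Dusp1 -0.75, E2f2 -0.58, Elovl6 0.0651, Fgf21 -0.47, Gins3 -0.31, Gpd1 0.56, Hk2 -0.14, Ier2 -0.47, Igf1 -0.40, Igf2bp2 -0.0115, Igfbp2 -0.61, Igfbp5 -0.41, Igfbp6 0.12, Insr -0.13, Itga7 -0.33, Junb -0.24, Ldhb 0.45, Mef2c 0.16, Mfap5 -0.61, Mxi1 -0.25, Mybpc1 0.19, Mycl1 -0.0660, Myf5 0.12, Myh4 0.99, Myl4 0.40, Myl9 0.25, Myod1 -0.55, Ndrg1 -0.46, Orc6 -0.34, Pdk4 0.0171, Pfkp -0.61, Pgam2 0.62, Psph -0.10, Rbl2 -0.22, Ryr1 -0.12, Slc16a1 -0.0654, Sod3 -0.11, Tcap 1.28 and Tspan7 0.59. The cause was not tested. Depth limits only genes near the floor, such as Arrdc4.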
